A study of Mus musculus with 24 samples.

Results

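Hox genes were the genes whose symbol is Hoxa, Hoxb, Hoxc or Hoxd followed by a number. Each gene was read from the probe set that names it alone and has the highest mean log2 signal over the 12 arrays of its table. This gave 34 Hox genes of 17097 genes in the arrays of the ependymal region and 36 Hox genes of 22180 genes in the arrays of spinal cord neurospheres. Hoxa6, Hoxc6, Hoxc11 and Hoxc12 were read in the neurosphere table only, and Hoxa11 and Hoxd4 in the ependymal table only. The symbol alone chose the members, and 32 of them were read in both tables.

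The first experiment profiled the region around the spinal cord central canal, cut out by laser from unfixed thoracic cord of adult CD1 mice aged 3 months. Injured mice (n = 6) received several needle penetrations of the exposed cord and were taken 3 days later, and sham mice (n = 6) had the bone over the cord removed without penetration. The second experiment profiled neurosphere cultures, floating clusters of progenitor cells grown from adult spinal cord, from 4 animals in 3 conditions: with EGF, FGF2 and heparin (n = 4), 3 days without them on a poly-D-lysine and laminin coat in 2% fetal bovine serum (n = 4), and with EGF, FGF2 and heparin returned for 3 days after the serum was removed (n = 4). The conditions without factors therefore differ in the coat and in the serum as well as in the growth factors, and these cannot be told apart here.

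Hox genes encode homeodomain transcription factors that give cells their position along the head-to-tail axis. They lie in 4 clusters, on mouse chromosomes 6 (Hoxa), 11 (Hoxb), 15 (Hoxc) and 2 (Hoxd), and members of the same number in different clusters form a paralogue group. Low-numbered groups are used from the hindbrain backwards, middle groups at cervical, limb-level and thoracic positions, and the highest groups at lumbar, sacral and tail positions. In the spinal cord they are known best for setting motor neuron columns and pools, and the pattern set in the embryo is kept in part in adult cells.

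Values are log2 signals after robust multi-array averaging (RMA), and a difference of 1 is a 2-fold change. Signals of different probe sets were not set against each other. A gene was called above background on an array where its signal passed the 95th percentile of the probe sets for olfactory, vomeronasal and trace amine receptors of the nose on that array, 84 in the ependymal table and 1420 in the neurosphere table. This threshold lay between 5.13 and 6.12 on the ependymal arrays and between 3.97 and 4.24 on the neurosphere arrays. The position of a gene in an array is given as the percentile of its signal among all probe sets there.

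The ependymal arrays fell into 3 sets by the distribution of all their signals. The sets held replicates 1 and 2, replicates 3 and 4, and replicates 5 and 6 of both groups, and what separates them is not given in the labels. The array medians were 5.34 to 5.36 in set 1, 4.97 to 5.03 in set 2 and 4.85 to 4.89 in set 3. Over all 17097 genes a median of 70.1% of the variance of a gene lay between the sets, and over the 34 Hox genes 72.0%. The share between injured and sham mice was 3.80% for the Hox genes and 5.32% for all genes. The labelled tissue held its markers: 5 of 6 ependymal markers were above background on every injured array and 6 of 6 on every sham array, and 5 of 6 were called lower in injured mice (list mean 8.63 to 9.38 in injured mice and 9.91 to 10.56 in sham mice). Astrocyte markers averaged 8.41 to 9.15 in injured mice and 7.31 to 8.25 in sham mice, without overlap. Markers of neurons ranged from 6.82 to 9.44 in injured mice and from 8.49 to 10.16 in sham mice, and 1 of 7 was called lower without a block and 7 of 7 with the set as a block. Under that block 3 of 4 oligodendrocyte precursor markers were higher, and 3 of 6 markers of microglia and macrophages were higher and 1 lower. Of all genes, 4.78% were called without a block and 25.1% with the set as a block. Pdgfra was above background on no array and Olig2 on no sham array. Among the microglia and macrophage markers, Aif1 was above it on no sham array and P2ry12 on no injured array. Skeletal muscle markers ranged from 4.67 to 8.72 in injured mice and from 4.90 to 9.64 in sham mice, with the highest signal on sham 3, 4 and 6 and injured 6. All 8 of these genes had a lower mean in injured mice (median difference -1.72). None was called without a block, and 1 was called lower with the set as a block. Genes of neutrophils and marrow ranged from 4.72 to 11.31 in injured mice and from 5.25 to 11.60 in sham mice. They were highest on every array of set 2 (sham 3 and 4 at 11.47 and 11.60, injured 3 and 4 at 10.83 and 11.31) and on sham 6 (11.10). The next highest array was injured 6, at 8.01. Erythroid markers were highest on the same arrays, at 8.40 to 10.49, against at most 6.47 on the others. In tissue, fewer cells of a type and less RNA per cell cannot be told apart, and the part of these markers in the Hox values was not tested.

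In the adult central canal region Hox signals passed the background in paralogue groups 2 to 10 and in none of groups 11 to 13. Of the 7 genes read in groups 1 to 3, 4 were above background on all 12 arrays (Hoxb2, Hoxa3, Hoxb3 and Hoxd3), and of the 17 genes in groups 4 to 9, 9 were. In group 10, Hoxa10 was above background on all 12 arrays, Hoxc10 on 9 and Hoxd10 on none. None of the 7 genes read in groups 11 to 13 (Hoxa11, Hoxd11, Hoxd12, Hoxa13, Hoxb13, Hoxc13 and Hoxd13) was above background on any array. These are probe sets on 1 platform, so a gene at background may be low or may have a weak probe set. Reading the probe set with the highest mean favours detection. Hoxa3 has 4 probe sets and Hoxb4 has 2, and all but the one read were above background on 0 arrays. The other probe sets of Hoxb3 and Hoxd8 were above it on all 12 arrays.

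The 5 members with the highest position in the arrays were Hoxc8 (mean percentile 95.9), Hoxb3 (90.5), Hoxd8 (90.3), Hoxa7 (89.8) and Hoxa5 (88.6). Hoxc8, which acts at brachial and thoracic levels of the cord, had signals of 10.11, 10.33, 9.32, 9.69, 10.26 and 9.66 in injured mice, and of 10.34, 10.45, 9.37, 9.33, 10.002 and 9.87 in sham mice. The groups overlapped, and the difference was 0.00 with a 95% interval from -0.51 to 0.51. Hoxa5, used at cervical levels, differed by -0.01 (interval -0.35 to 0.33) and Hoxb3, known in hindbrain patterning, by -0.13 (interval -0.50 to 0.24).

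By cluster, 5 of 9 Hoxa genes, 5 of 10 Hoxb genes, 2 of 6 Hoxc genes and 2 of 9 Hoxd genes were above background on all 12 arrays. The 2 Hoxc genes were Hoxc8 and Hoxc9, and the 2 Hoxd genes were Hoxd3 and Hoxd8. Hoxc4, Hoxc10, Hoxb5, Hoxd9, Hoxa2, Hoxb9 and Hoxd4 passed the background on 10, 9, 11, 11, 4, 1 and 1 arrays. On all 6 arrays of their own group, 14 of 34 members were above background in injured mice and 17 in sham mice; Hoxb5, Hoxc4 and Hoxd9 made this difference, each under the threshold on 1 or 2 injured arrays of set 2.

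**Figure D1:**
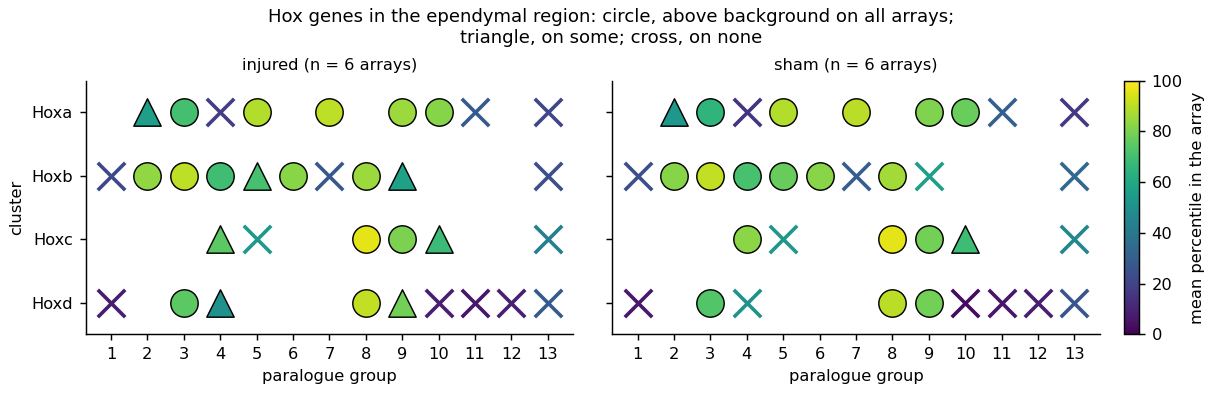
Hox genes of the ependymal region by cluster (rows) and paralogue group (columns), for injured mice on the left and sham mice on the right. Colour is the mean percentile within the array over 6 arrays, a circle is a gene above background on all 6 arrays, a triangle on some and a cross on none; an empty place was not read, and groups 11 to 13 hold crosses only.

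Injury was compared with sham surgery to ask whether the axial profile changed within 3 days. No Hox gene of 34 was called at an adjusted p under 0.05 (limma, Benjamini-Hochberg over all 45037 probe sets), while 4.78% of all genes were called (2.91% higher and 1.87% lower). At an unadjusted p under 0.05 by limma there were 2 of 34, Hoxa9 and Hoxb13, against 2767 of all 17097 genes. Injured and sham values did not overlap for 0 of 34 Hox genes, against 4.43% of all genes. The median difference was 0.05 over the Hox genes and 0.02 over all genes, with a range from -0.79 (Hoxc4) to 0.72 (Hoxa10).

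Hoxa9, a group 9 gene of thoracic and lumbar identity, came nearest. Its signals were 8.01, 7.71, 8.18, 8.13, 7.86 and 8.35 in injured mice, and 7.50, 7.67, 7.79, 7.61, 7.41 and 7.35 in sham mice. Injured 2 lay below sham 3, and the other 5 injured arrays were above every sham array. The means were 8.04 ± 0.23 in injured mice and 7.55 ± 0.17 in sham mice (SD, n = 6 each), a difference of 0.49 (SE 0.13) with adjusted p = 0.060 by limma. Blocking on the set gave an adjusted p of 0.0081, and blocking on the replicate number gave 0.024. Within sets 1, 2 and 3 the difference was 0.27, 0.46 and 0.73. Leaving out the 4 muscle-rich arrays (sham 3, 4 and 6 and injured 6) gave 0.45 with adjusted p = 0.23 without a block (limma). With the set as a block the remaining arrays gave 0.33 with adjusted p = 0.089 (limma). Without injured 2 alone and without a block the difference was 0.55 with adjusted p = 0.031 (limma).

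When the set was entered as a block, 4 Hox genes of 34 were called, Hoxa9 higher and Hoxb5, Hoxb13 and Hoxc4 lower, while 25.1% of all genes were called (12% higher and 13.1% lower). The same 4 genes were called with the replicate number as a block, at which 21.1% of all genes were called. The share of the members called was below that background in both fits. With the 4 muscle-rich arrays left out and the set entered as a block, 5 of 34 were called, Hoxa10 and Hoxd9 higher and Hoxb4, Hoxb5 and Hoxc4 lower, while 19.1% of all genes were called (10.4% higher and 8.73% lower). Set 2 then held injured arrays only and added nothing to these differences. They rest on replicates 1 and 2 of both groups in set 1 and on replicate 5 alone of each group in set 3. In set 2 of the full data Hoxa10 and Hoxd9 were lower in injured mice, by -0.99 and -0.96.

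Hoxc4 is used at cervical levels. Its signals were 8.04, 8.23, 5.54, 5.74, 7.72 and 6.93 in injured mice, and 8.65, 8.88, 6.36, 6.82, 8.07 and 8.15 in sham mice. The whole groups overlapped, since set 2 was low in both, but the injured arrays were below the sham arrays of the same set in all 3 sets. The set means over both groups were 8.45, 6.11 and 7.72, and the differences within the sets were -0.63, -0.95 and -0.78. The overall difference was -0.79 with adjusted p = 0.85 without a block and 0.0022 with the set as a block (limma). Without the 4 muscle-rich arrays it was -1.48 without a block. Set 2 then held injured arrays only, so that value mixes the low set with injury. With the set as a block the remaining arrays gave -0.54. Leaving out single arrays without a block gave -1.08 to -0.49, the smallest without injured 3.

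Hoxb5, a cervical and brachial gene, had signals of 6.94, 7.44, 5.55, 6.00, 6.71 and 6.92 in injured mice, and of 8.10, 8.06, 6.46, 6.24, 7.19 and 6.86 in sham mice. The injured arrays were below the sham arrays of their set in sets 1 and 2, and the 2 groups overlapped in set 3. The difference was -0.56, with adjusted p = 0.83 without a block and 0.016 with the set as a block (limma). Without the 4 muscle-rich arrays it was -1.26 without a block, where set 2 held injured arrays only, and -0.75 with the set as a block. Leaving out single arrays without a block gave -0.74 to -0.35, the smallest without injured 3, with -0.37 without sham 1. Hoxb13, a tail-level gene, was below background on all 12 arrays, at 3.98 to 4.32 in injured mice and 4.17 to 4.70 in sham mice, so its difference of -0.28 describes signals under the threshold.

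Hoxa10 and Hoxd9, which help set lumbar and hindlimb-level identity, had differences of opposite sign in different sets. Hoxa10 had signals of 7.34, 8.25, 5.77, 6.48, 9.97 and 9.66 in injured mice, and of 6.56, 6.67, 7.001, 7.23, 7.74 and 7.93 in sham mice. The injured arrays were above the sham arrays in sets 1 and 3 and below them in set 2, with differences of 1.18, -0.99 and 1.98. Hoxd9 had signals of 7.84, 8.03, 6.20, 5.72, 8.61 and 8.31 in injured mice, and of 7.12, 7.11, 6.95, 6.90, 8.13 and 7.74 in sham mice, and its differences in the 3 sets were 0.82, -0.96 and 0.52. Over all sets the difference was 0.72 (interval -0.68 to 2.13) for Hoxa10 and 0.13 (interval -0.90 to 1.15) for Hoxd9. A test of whether the effect of injury differed between the sets, chosen after these values were seen, gave adjusted p = 0.14 for each gene by limma's F test over all probe sets, and called 0 of 17097 genes. These 2 genes were chosen after their values were seen. Members of other groups also changed sign between sets. Among them, in sets 1, 2 and 3, were Hoxc10 (0.25, -0.59 and 0.65), Hoxa7 (-0.17, 0.65 and -0.24) and Hoxb3 (-0.32, -0.41 and 0.33).

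**Figure D2:**
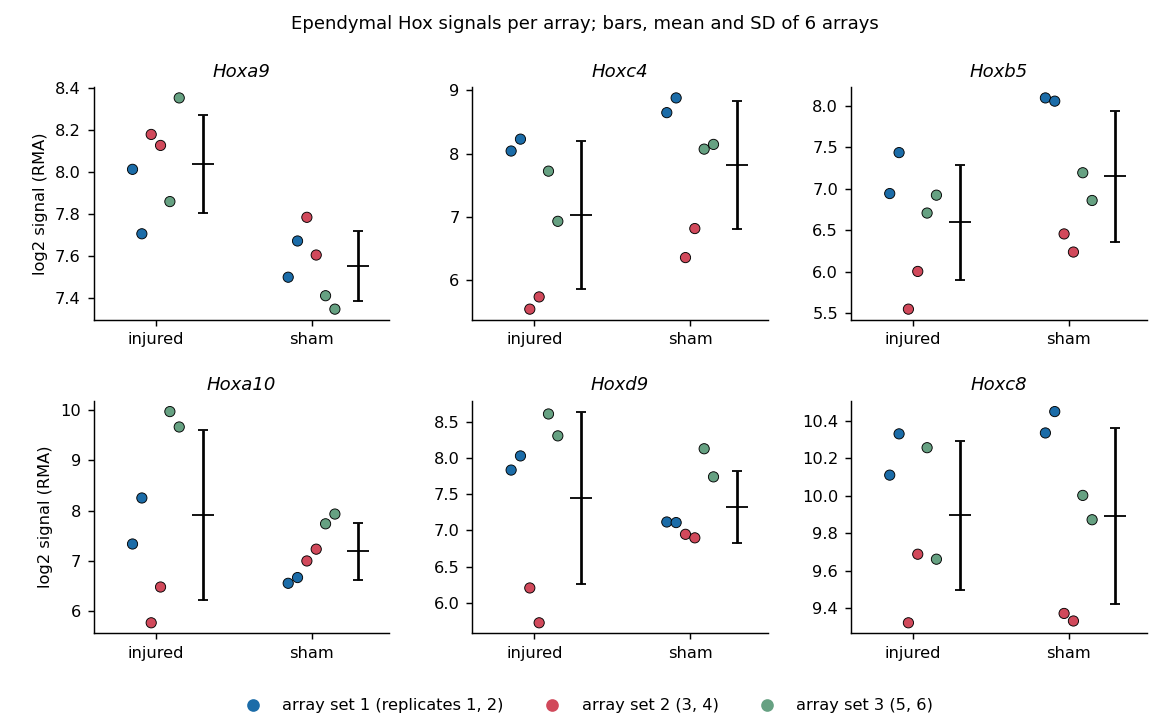
Log2 signals of 6 Hox genes on each ependymal array, injured on the left and sham on the right of each panel, coloured by set of arrays; bars are the mean and SD of 6 arrays. Hoxa9 is higher on 5 of 6 injured arrays than on any sham array, Hoxc4 and Hoxb5 are lowest in set 2 of both groups, and Hoxa10 and Hoxd9 are lower on the injured arrays of set 2 only.

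Genes that work with Hox proteins or control the clusters were then described, in lists chosen with earlier results of these data known, while 4.78% of all genes were called without a block and 25.1% with the set as a block. Of 8 measured TALE cofactors, the homeodomain partners that bind DNA beside Hox proteins, 0 were higher and 1 was lower: Meis2 averaged 9.19 ± 0.23 in injured mice and 9.84 ± 0.13 in sham mice (SD, n = 6 each; difference -0.65, limma adjusted p = 0.0093). Of 15 retinoic acid pathway genes 1 rose, Rdh10, an enzyme that makes retinaldehyde (difference 1.07), and 1 fell, Crabp1, a binding protein of retinoic acid (difference -0.69). Of 20 Polycomb genes, which keep Hox clusters silent, 1 fell, Cbx7 (difference -0.75), and of 8 Trithorax and demethylase genes 0 were called. Of 7 genes that open the clusters in the embryo 0 were called. Of 11 transcription factors of brain regions 1 rose, Gbx2 (difference 1.41), which passed the background on 1 of 12 arrays. Of 4 measured non-coding genes of the clusters 0 were called. The median difference was -0.08 over the TALE list, 0.06 over the retinoic acid list, -0.16 over the Polycomb list and -0.07 over the Trithorax and demethylase list, against 0.02 over all genes. With the set as a block the calls were 1 higher and 5 lower in the Polycomb list, where Ezh2 was the higher one, 1 higher and 2 lower in the retinoic acid list, 0 higher and 1 lower in the Trithorax and demethylase list (Psip1), and 2 higher among the brain factors (Gbx2 and Egr2). The TALE list kept Meis2 as its 1 call.

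In the neurospheres Hox signals passed the background on all 12 arrays in 1 or more genes of each group from 1 to 10 and in 1 gene of group 12. Above background on all 12 arrays were 4 of 7 genes in groups 1 to 3, 16 of 18 in groups 4 to 9 and 3 of 3 in group 10, but 1 of 8 in groups 11 to 13. That gene was Hoxc12, at 4.34 to 4.55 with growth factors, 4.28 to 5.07 without and 4.22 to 4.57 after their return, and it passed the 99th percentile of the nose receptors on 0 arrays. The same held for Hoxb1, the 1 gene of group 1 above background, so both ends of the range rest on signals near the limit. Such signals were not confined to the ends. At the 99th percentile 1 of 7 genes in groups 1 to 3, 7 of 18 in groups 4 to 9 and 1 of 3 in group 10 passed on all 12 arrays. The other 7 genes of groups 11 to 13 were above background on none. By cluster, 8 of 9 Hoxa genes, 8 of 10 Hoxb genes, 6 of 9 Hoxc genes and 2 of 8 Hoxd genes were above background on all 12 arrays. The numbers above background on all 4 arrays of a condition were 24 of 36 with factors, 24 without and 25 after the return. Hoxb5 was read from the brighter of 2 probe sets, and the other was above background on 0 arrays.

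The members highest in the neurosphere arrays were Hoxa6 (mean percentile 94.4), Hoxa5 (90.9), Hoxa7 (87.8), Hoxa9 (85.3) and Hoxc6 (85.3), of groups 5 to 9. Of the 32 genes read in both tables, 12 were above background on all arrays of both and 7 on none of either. A further 9 were above background on all neurosphere arrays but not on all ependymal arrays, and 4 of these were on no ependymal array. Hoxb2 and Hoxd3 went the other way, being above background on 12 ependymal arrays each but on 0 and 8 neurosphere arrays. Some neurosphere probe sets name Hoxb3 and Hoxb2 together, or Hoxd4 and Hoxd3 together, and are no members. Each of these was above background on 12 arrays. The tables come from different array platforms, so the probe sets differ as well as the cells.

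**Figure D3:**
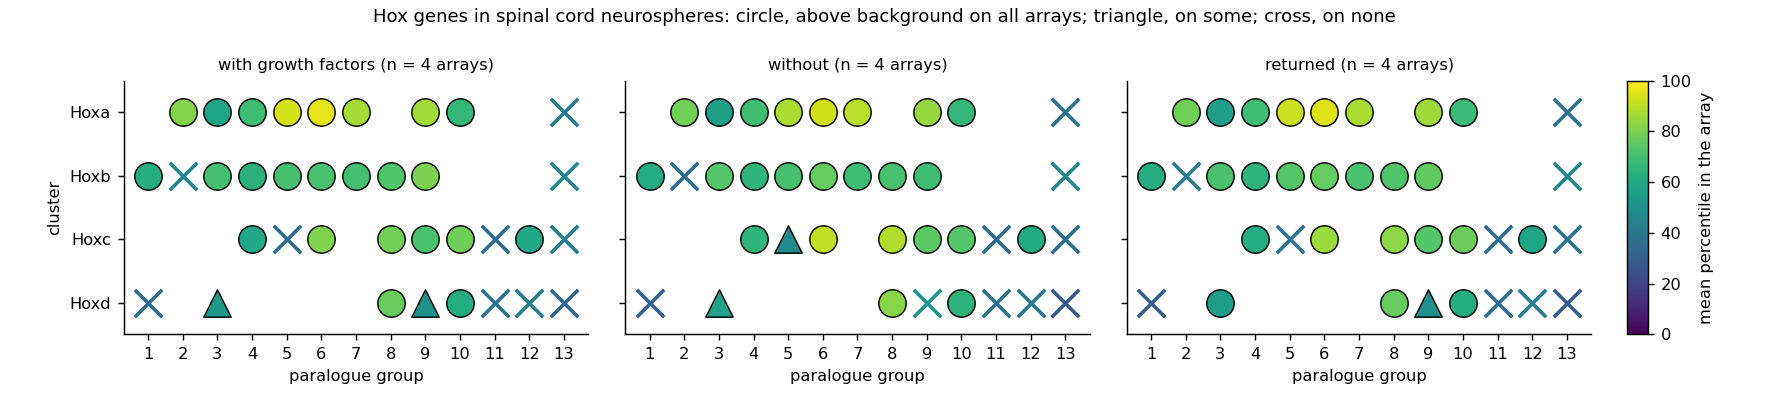
Hox genes of spinal cord neurospheres by cluster (rows) and paralogue group (columns) with growth factors, without them and after their return, with 4 arrays in each. Colour is the mean percentile within the array, a circle is a gene above background on all 4 arrays, a triangle on some and a cross on none; Hoxc12 is the 1 circle in groups 11 to 13.

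Cells without growth factors were compared with growing neurospheres to ask how the profile changed as the cells differentiated. Of 36 Hox genes 12 were called (limma, Benjamini-Hochberg over all 41155 probe sets), 7 higher and 5 lower without factors, while 28.3% of all genes were called (12.1% higher and 16.2% lower). The share of the members was near that background. By cluster, in Hoxa 0 of 9 were higher and 3 lower, in Hoxb 1 of 10 was higher and 2 lower, in Hoxc 4 of 9 were higher and 0 lower, and in Hoxd 2 of 8 were higher and 0 lower. With the mouse as a block Hoxa had 1 higher and 4 lower and Hoxc 4 higher and 1 lower, and no test of a difference between clusters was made. The values without and with factors did not overlap for 12 of 36 genes, against 30.1% of all genes. The median difference was 0.05 over the Hox genes and 0.00 over all genes. The split depended on scaling: 7 higher and 5 lower became 3 higher and 6 lower with each array centred on its median, and 4 higher and 4 lower after quantile normalization.

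Hoxa5, Hoxa6 and Hoxd8 changed on withdrawal and changed back on return, and RefSeq holds promoter windows for these 3. They are shown because these are the members called in both steps whose sequence is at hand; Hoxc8 was called in both steps too. Each window runs from 250 bases before to 50 bases after the start of the gene on GRCm38.p6, 5′ to 3′ on the strand of the gene, at chr6:52204538-52204837 (minus strand) for Hoxa5, chr6:52208623-52208922 (minus strand) for Hoxa6 and chr2:74704365-74704664 (plus strand) for Hoxd8. Capitals mark a match to a retinoic acid receptor half-site.
Hoxa5: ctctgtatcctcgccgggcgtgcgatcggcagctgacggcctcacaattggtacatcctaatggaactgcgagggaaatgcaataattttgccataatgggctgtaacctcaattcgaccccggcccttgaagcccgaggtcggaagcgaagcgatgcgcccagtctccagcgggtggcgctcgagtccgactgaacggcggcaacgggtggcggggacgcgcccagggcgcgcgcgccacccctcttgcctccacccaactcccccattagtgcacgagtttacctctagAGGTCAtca
Hoxa6: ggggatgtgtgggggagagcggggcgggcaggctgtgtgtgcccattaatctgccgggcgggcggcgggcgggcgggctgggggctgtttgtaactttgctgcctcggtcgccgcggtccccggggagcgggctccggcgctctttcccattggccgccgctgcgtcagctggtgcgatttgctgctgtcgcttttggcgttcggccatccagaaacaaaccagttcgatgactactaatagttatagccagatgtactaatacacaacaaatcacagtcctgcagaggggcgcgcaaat
Hoxd8: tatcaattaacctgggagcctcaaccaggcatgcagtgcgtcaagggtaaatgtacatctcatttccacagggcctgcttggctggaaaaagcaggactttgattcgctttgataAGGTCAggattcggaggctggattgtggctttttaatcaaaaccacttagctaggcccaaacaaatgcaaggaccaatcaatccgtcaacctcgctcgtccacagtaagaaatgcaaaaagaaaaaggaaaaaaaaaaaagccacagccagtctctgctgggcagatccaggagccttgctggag
These 4 short motifs were searched on both strands: AGGTCA (retinoic acid receptor half-site), TGATNNAT (PBX-HOX), TTTATG (CDX) and CCGGAA (ETS). Hoxa5 and Hoxd8 each held 1 AGGTCA match, which 16.3% of 32851 promoter windows held, and Hoxa6 held no match to any of the motifs. TGATNNAT was in 8.85% of all windows, TTTATG in 11.9% and CCGGAA in 14.9%. The windows held 29, 26 and 6 CG dinucleotides in Hoxa5, Hoxa6 and Hoxd8, against a median of 7 over all windows. A match describes these letters only, and 22 of the 38 genes read in either table had a window.

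Hoxa5 (probe set 17466833) had signals of 8.26, 8.11, 8.35 and 7.89 with factors, 7.26, 6.83, 7.49 and 6.66 without and 7.85, 7.76, 7.95 and 7.74 after the return, in mice 1 to 4. Every culture was lower without factors, and no value without factors reached a value of either other condition. The difference without against with factors was -1.10 (SE 0.17, limma adjusted p = 3.7e-04), 2.14-fold lower. Hoxa6 (probe set 17466838), its neighbour in the cluster, had signals of 8.79, 8.54, 8.77 and 8.42 with factors, 8.11, 7.71, 8.05 and 7.74 without and 8.35, 8.31, 8.51 and 8.32 after the return. It was lower without factors in 4 of 4 cultures, by 0.68 to 0.82 in each, with a difference of -0.73 (SE 0.12, adjusted p = 5.7e-04). Hoxa9 also fell, to 6.66 ± 0.12 without factors, against 6.97 ± 0.09 with them (SD, n = 4 each; difference -0.31, limma adjusted p = 0.019), but its culture from mouse 4 differed by only -0.03.

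Hoxb9, a thoracic gene of the Hoxb cluster (probe set 17255558), had signals of 6.29, 6.29, 6.24 and 6.24 with factors, 4.75, 4.89, 5.29 and 5.81 without and 5.73, 5.59, 5.87 and 5.94 after the return. With factors the 4 cultures lay within 0.1 of each other, and without factors they spread over more than 1. The fall was 1.54, 1.39, 0.94 and 0.43 in mice 1 to 4, with a difference of -1.08 (SE 0.19, limma adjusted p = 9.5e-04). Hoxb6, of group 6, rose to 5.78 ± 0.11 without factors, against 5.31 ± 0.14 with them (SD, n = 4 each; difference 0.47, limma adjusted p = 0.028). Hoxb2 was called lower (difference -0.33, limma adjusted p = 0.014) with every array below background, at 3.30 to 3.55 without factors and 3.62 to 3.87 with them.

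Hoxc8 (probe set 17315514) had the smallest p of the members. Its signals were 6.39, 5.89, 6.21 and 5.88 with factors, 7.22, 7.24, 7.15 and 7.09 without and 6.69, 6.34, 6.65 and 6.64 after the return. The 4 cultures without factors lay above all others, and the difference was 1.08 (SE 0.12, limma adjusted p = 3.3e-05), 2.12-fold higher. Hoxc6, which acts at the forelimb level (probe set 17315519), had signals of 6.71, 6.68, 6.23 and 5.67 with factors, 7.40, 7.87, 7.30 and 7.38 without and 6.47, 6.71, 6.81 and 7.24 after the return. It was 2.24-fold higher without factors, with a difference of 1.16 (SE 0.23, adjusted p = 0.0027), and its SD over the cultures was 0.49 with factors, 0.26 without and 0.32 after the return. Hoxc4 and Hoxc9 rose by 0.43 and 0.37, with adjusted p of 0.027 and 0.047 (limma).

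Hoxd8 (probe set 17372072) had signals of 5.91, 5.77, 5.92 and 5.90 with factors, 6.53, 6.41, 6.46 and 6.23 without and 5.75, 5.81, 6.11 and 5.82 after the return. The values without factors lay above all the others, and the difference was 0.53 (SE 0.10, limma adjusted p = 0.0014). Hoxd3, used in the hindbrain and neck, rose by 0.32 (limma adjusted p = 0.036) and passed the background on 3 of 4 arrays without factors, against 1 of 4 with them. The probe set that names Hoxd4 and Hoxd3 together, which is no member, rose by 1.00 (adjusted p = 7.8e-05).

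With the mouse as a block, 15 genes were called, the same 12 and Hoxa2 (difference -0.40, limma adjusted p = 0.021), Hoxa7 (0.28, limma adjusted p = 0.028) and Hoxc10 (-0.50, limma adjusted p = 0.0045), while 32.7% of all genes were called. Hoxa7 is an example of a gene whose probe sets did not move together: the probe set that names it alone differed by 0.28 (adjusted p over 0.05 without the block), and the one that also names the transcript Mira differed by -0.34 (adjusted p = 0.030). Hoxa5, Hoxa6, Hoxb2, Hoxb9, Hoxc6, Hoxc8 and Hoxd8 were called without each of the 12 arrays in turn. Hoxa9, Hoxb6, Hoxc4, Hoxc9 and Hoxd3 were called without 8, 8, 7, 3 and 7 of 12 arrays. Without the culture from mouse 2 that lacked factors, 7 genes were called.

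**Figure D4:**
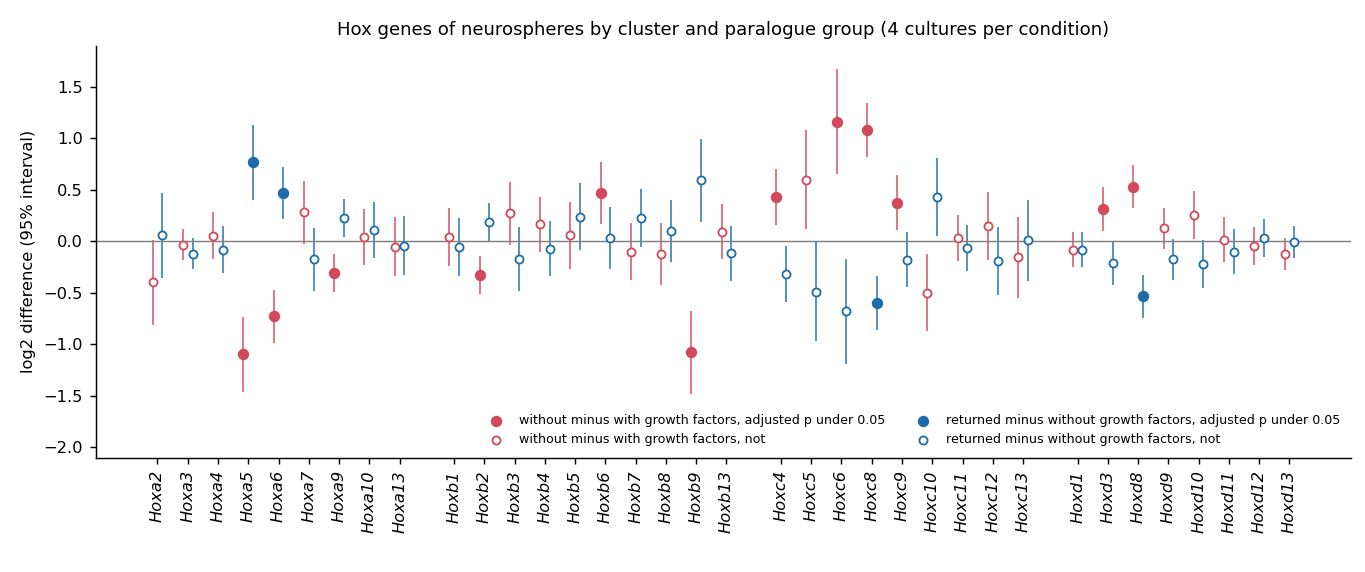
Log2 differences of 36 Hox genes in cluster order with 95% intervals, for cells without against with growth factors (red) and after the return against without (blue), from 4 cultures in each condition. Filled points have an adjusted p under 0.05; Hoxa5, Hoxa6, Hoxc8 and Hoxd8 are filled in both colours. Both series use the same 4 arrays without factors.

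When the factors were returned to the differentiated cells, 4 of 36 Hox genes were called against the cells without factors, while 16.7% of all genes were called (10.1% higher and 6.56% lower). Hoxa5 and Hoxa6 rose by 0.77 (SE 0.17) and 0.47 (SE 0.12), with adjusted p of 0.0086 and 0.019 (limma), and Hoxc8 and Hoxd8 fell by 0.60 (SE 0.12) and 0.53 (SE 0.10), with adjusted p of 0.0058 and 0.0027 (limma). In each of the 4 genes all 4 cultures moved the same way. The split of 2 higher and 2 lower became 4 higher and 2 lower with each array centred on its median, and 2 higher and 3 lower after quantile normalization. The median difference was -0.07 over the Hox genes and -0.02 over all genes. The values after the return and without factors did not overlap for 7 of 36 genes, against 20.3% of all genes. Hoxb9 differed by 0.59 (adjusted p = 0.057) and Hoxc6 by -0.68 (adjusted p = 0.082). With the mouse as a block Hoxb9 (limma adjusted p = 0.031) and Hoxc10 (0.43, limma adjusted p = 0.016) were called too, 6 genes in all, while 21.3% of all genes were called. The probe set of Hoxd4 and Hoxd3 fell by 0.83 (adjusted p = 8.0e-04) and that of Mira and Hoxa7 rose by 0.51 (adjusted p = 0.0047). These 2 comparisons share the 4 arrays without factors, so they are not independent.

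**Figure D5:**
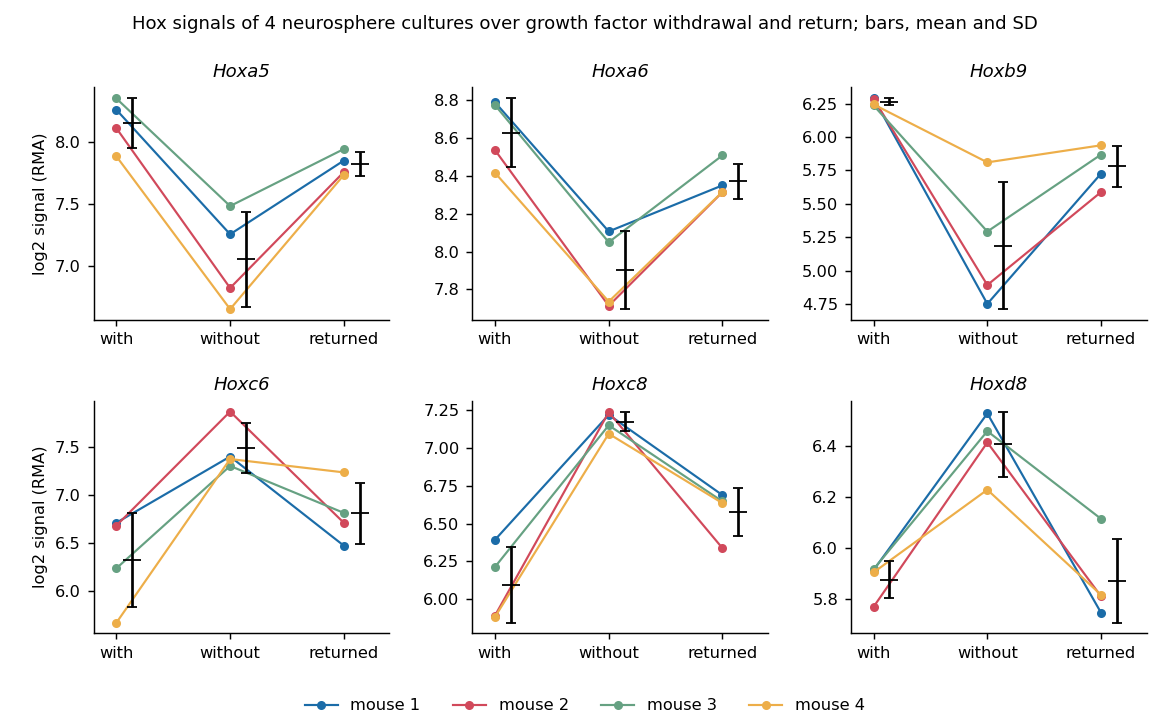
Log2 signals of 6 Hox genes in the cultures of 4 mice with growth factors, without them and after their return; lines join the arrays of a mouse, and bars beside them are the mean and SD of 4 arrays. Hoxa5, Hoxa6 and Hoxb9 are lowest without factors, and Hoxc6, Hoxc8 and Hoxd8 have their highest mean there.

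Returned cells were last compared with the growing neurospheres that were never withdrawn. Hoxc8 was higher after the return, at 6.58 ± 0.16, against 6.09 ± 0.25 with factors throughout (SD, n = 4 each; difference 0.48, limma adjusted p = 0.025). Hoxb6 was higher as well, at 5.81 ± 0.31 after the return, against 5.31 ± 0.14 (difference 0.50, limma adjusted p = 0.038). No gene of 36 was called lower, while 15.3% of all genes were called (7.86% higher and 7.43% lower). The values did not overlap for 4 of 36 genes, against 22.3% of all genes. Hoxa5 and Hoxa6 differed by -0.33 (interval -0.69 to 0.03) and -0.26 (interval -0.51 to -0.0019, limma adjusted p = 0.25). With the mouse as a block the same 2 genes were called, while 19.4% of all genes were called. Leaving out single arrays gave 0 to 3 calls here, and 0 calls without the growing culture of mouse 2 or of mouse 4, or the returned culture of mouse 3 or of mouse 4.

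Other genes of the Hox system were then described. Of all genes, 28.3% were called without against with factors, and 16.7% for returned against without. Of 8 TALE cofactors, 1 rose without factors (Meis2, to 8.44 ± 0.26, against 7.61 ± 0.24 with factors, SD, n = 4 each) and 2 fell (Pknox1 by 1.01 and Pbx3 by 0.73), and on return 2 rose and 2 fell. Of 8 embryonic inducers of the clusters, 1 rose, Gdf11, a growth factor that times the posterior Hox genes in the embryo, by 1.69 without factors, and it fell by 0.66 on return. Of 17 retinoic acid genes, 4 rose and 1 fell, led by Aldh1a1, an enzyme that makes retinoic acid (difference 3.32), Rdh10 (2.17) and Crabp1 (1.41). Aldh1a1 was at 8.63 ± 0.13 after the return, against 8.33 ± 0.47 without factors (SD, n = 4 each), and that difference was not called.

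Of 21 Polycomb genes, 3 rose and 7 fell without factors, among them Ezh2, the enzyme of Polycomb repressive complex 2, which fell by 1.72, and Ezh1, its paralogue, which rose by 0.82. On return 3 rose and 1 fell, and Ezh2 rose by 0.96. Of 10 Trithorax and demethylase genes, which keep genes active, 0 rose and 7 fell without factors, led by Psip1 (by 1.24). Of 12 brain regional factors, Egr2, which marks hindbrain segments in the embryo, fell by 0.87, and the others were not called. Of 7 non-coding genes of the clusters, Hotair, Hoxaas3, Hoxd3os1, Mir10b, Mir196a-1, Mir196a-2 and Mir615, 0 were called in any of the 3 comparisons. The median difference without against with factors was 0.09 over the TALE list, 0.03 over the retinoic acid list, -0.20 over the Polycomb list and -0.41 over the Trithorax and demethylase list, against 0.00 over all genes, of which 28.3% were called.

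Cell type and growth markers moved with the same arrays. The list mean of 2 proliferation markers was 9.54 to 9.76 with factors, 4.68 to 5.47 without and 8.34 to 9.03 after the return, and both were called in each comparison. The list mean of 6 astrocyte markers was 6.72 to 6.91 with factors, 8.18 to 8.53 without and 7.17 to 7.55 after the return. That of 5 oligodendrocyte precursor markers was 6.94 to 7.12 with factors, 6.06 to 6.31 without and 6.72 to 6.92 after the return. That of 4 pericyte and smooth muscle markers was 4.72 to 5.03 with factors, 6.07 to 6.49 without and 5.90 to 6.28 after the return. Ependymal markers were at 4.50 to 4.67, 5.18 to 5.20 and 4.60 to 4.92 in that order of conditions, and endothelial markers at 3.63 to 3.79, 4.27 to 4.46 and 3.76 to 3.85. The members of a list did not all move together. Without against with factors, 3 of 6 astrocyte markers were called higher and 1 lower, and 3 of 5 oligodendrocyte precursor markers lower. Called higher were 2 of 4 pericyte and smooth muscle, 3 of 6 ependymal and 1 of 4 endothelial markers. The same comparison called 28.3% of all genes (12.1% higher and 16.2% lower). The endothelial differences had a median of -0.01 and a maximum of 2.94. Of 4 motor neuron markers, 0 were above background on all arrays of any condition. The part of these cell types and of growth in the Hox values was not tested.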

How the data were processed

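The authors deposited 2 tables of log2 signals, per the labels made with Affymetrix Expression Console 1.2.1 and RMA, a method that corrects background, normalizes arrays and summarises probes into probe sets. Which arrays were normalized together is not stated, and the 12 ependymal arrays do not share 1 distribution. Neither table holds counts or a genome build. Array background and number of arrays, not sequencing depth, limit the precision. The labels give passage 1 and 3 days of withdrawal for the neurospheres, and the methods give 3 passages and 4 days. Control probe sets were left out (104 ependymal, 190 neurosphere), leaving 45037 and 41155. Probe sets were named through the platform annotation, with symbols updated through gene identifiers to RefSeq: 28898, 551 and 15588 ependymal probe sets, and 23521, 1820 and 15814 neurosphere probe sets, had 1 gene, several genes and none.

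Groups were compared with limma 3.58.1 in R 4.3.3 over all probe sets without a block, with Benjamini-Hochberg adjustment and a threshold of 0.05. The 3 neurosphere conditions were fitted together. Two-sided p-values set a difference against the residual spread between arrays. Without a block that spread includes the differences between sets of arrays and between mice. Same-numbered neurosphere arrays come from the same mouse per the labels, and their deviations correlated at 0.31 to 0.39 without against with factors, 0.27 to 0.36 for returned against without, and 0.16 to 0.31 for returned against with. Same-numbered ependymal arrays come from different mice and share a set of arrays (0.42 to 0.79, and -0.10 to 0.20 once set means were removed). Every member called was named with values, then members called with a block, the 5 members highest in each table, and up to 3 called genes of each other list. The fit was tested on simulated data. Promoter windows came from RefSeq. The members and lists were chosen with earlier results of these data known. Alternatives changed the scaling, filter, moderation, array weights, probe set summary, block and arrays.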

Additional observations from a re-analysis of the deposited data

Results flagged for a closer look

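Among the groups of arrays of 9 ependymal and 15 neurosphere members named by the rule, 4 of 63 had an array far from the others, with a gap to the nearest array that took most of the range of the group. About 1 in 20 groups gives such a gap by chance. All 4 were neurosphere cultures, from different mice and conditions. Hoxa2 in the culture of mouse 4 without factors was 5.58, against 6.14 to 6.22 in the other 3 (gap 0.875 of the range). Hoxc8 after the return was 6.34 in mouse 2, against 6.64 to 6.69 (0.849). Hoxd3 with factors was 4.31 in mouse 1, against 4.00 to 4.03 (0.911). Hoxd8 with factors was 5.77 in mouse 2, against 5.90 to 5.92 (0.917).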

How the results depend on the processing

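None of the members called in a neurosphere comparison, and none of Hoxa9, Hoxb5, Hoxb13 and Hoxc4 after injury, changed direction under any alternative. Members without a call after injury did: Hoxd9, Hoxc8 and Hoxa7, among others, differed by -0.17, -0.32 and -0.17 without the 4 muscle-rich arrays and without a block, against 0.13, 0.00 and 0.08 with all arrays. Set 2 then held injured arrays only, so these shifts mix the set with injury. With the set as a block the remaining arrays gave 0.71, -0.03 and -0.22. Against 0 calls for injured against sham, the replicate block gave 4, the set as a block 4, averaging the probe sets of each gene 1 (Hoxa9, limma adjusted p = 0.039), and dropping the 4 muscle-rich arrays with the set as a block 5 (19.1% of all genes); single arrays left out gave 0 to 1. The 12 calls without against with factors stayed within 1.5 times under all settings but leaving out single arrays (7 to 12), and 8 of them remained with arrays centred or quantile normalized. The 4 calls of returned against without were called under every alternative that kept all arrays (4 to 6 calls), and single arrays left out gave 3 to 6. For returned against with, 2 calls became 1 under quantile normalization, 1 without moderation and 1 in a fit of only these 2 groups (a different gene, lower), and 0 to 3 with single arrays left out. The replicate block, which is the mouse in the neurospheres, gave 15, 6 and 2 calls in the 3 neurosphere comparisons.

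At the 99th percentile of nose receptors, genes above background on all arrays of a group were 11 of 14 in injured mice and 10 of 17 in sham mice, so that injured mice no longer had fewer, and 11 of 24 with factors, 10 of 24 without and 13 of 25 after the return. At the array median they were 19 in injured and 19 in sham mice. Group sizes of 4 and 6 arrays limit what differences can be called, and a member under the background threshold has no measured level.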
